A study of Mus musculus with 16 samples.

Results

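RNA levels of 9 serine/arginine-rich (SR) splicing factor genes, Srsf1, Srsf2, Srsf3, Srsf4, Srsf5, Srsf6, Srsf7, Srsf9 and Srsf10, were described over 16 mouse libraries, out of 31663 entries in the deposited expression table. The set was selected on measured values: Srsf2 had been seen to be raised in 1 of the 8 groups, iPSC cultured alone with BMP4, and the other 8 genes are its family members by name. The values that chose the set are therefore given as a description, with no test of Srsf2 in any comparison and no test of any member for BMP4 in iPSC alone.

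The study built structures from induced pluripotent stem cells (iPSC, carrying GFP) and trophectoderm stem cells (TSC, named TSCC in some labels and carrying RFP), and asked how each lineage's transcriptome looks in the assembled structure. The 8 groups, with 2 libraries each, were iPSC alone, TSC alone, the iPSC part of an assembled structure and the TSC part of an assembled structure, each kept without or with BMP4 for the last 24 hours before collection at day 3. All groups shared 5% Matrigel and one culture medium that contained FGF4 (12.5 ng/ml) and heparin (500 ng/ml), the agents used to hold TSC in culture. The BMP4 dose is not given in the sources used here. Each library was prepared by the Smart-seq2 protocol from 1 picked colony or hand-separated part, so a library can hold cells of the other part. Whether replicate libraries stem from separate cultures is not stated, and the p-values then measure only the spread between these libraries, which may be technical.

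SR proteins bind exonic enhancer sequences in pre-mRNA through RNA recognition motifs and recruit the splicing machinery through a domain rich in arginine-serine repeats. Their activity is set by phosphorylation by SRPK and CLK kinases, and several also carry mature mRNA out of the nucleus. Their transcripts are well known for regulating themselves: an SR protein can promote inclusion of an exon with an early stop codon in its own RNA, which sends that RNA to nonsense-mediated decay. In the GENCODE M21 annotation, Srsf2 had 6 transcripts, of which 2 were coding, 2 were of the nonsense-mediated decay class and 1 retained an intron. Of the 9 members, 8 had at least 1 transcript of the decay class, Srsf10 being the exception. The deposited values give 1 level per gene and do not separate these forms.

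The 250 bases before the start site are shown for Srsf2, the member that stood apart, and for Srsf3, the member with the highest median level, whose mean in iPSC alone with BMP4 was 0.965 times that without. The sequences are RefSeq's for GRCm38.p6, a build other than the mm9 named in the processing notes, and all 9 members matched an entry. Capitals mark matches on either strand to 4 motifs. The first is CCAAT, the NF-Y box, which reads ATTGG on the other strand. The second is TATAAA, the core promoter element bound by TBP, which reads TTTATA on the other strand. The third is GGCGCC, a motif that reads the same on both strands. The last is TGACG, the core of the CREB/ATF site, which reads CGTCA on the other strand. None of these motifs overlapped another in the sequences shown.
Srsf2, chr11:116853095-116853344, minus strand: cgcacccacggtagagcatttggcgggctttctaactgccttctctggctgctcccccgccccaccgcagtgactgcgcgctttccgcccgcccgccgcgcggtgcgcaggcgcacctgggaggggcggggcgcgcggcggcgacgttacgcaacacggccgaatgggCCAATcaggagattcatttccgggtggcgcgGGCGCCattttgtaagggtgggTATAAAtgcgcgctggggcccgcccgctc
Srsf3, chr17:29032410-29032659, plus strand: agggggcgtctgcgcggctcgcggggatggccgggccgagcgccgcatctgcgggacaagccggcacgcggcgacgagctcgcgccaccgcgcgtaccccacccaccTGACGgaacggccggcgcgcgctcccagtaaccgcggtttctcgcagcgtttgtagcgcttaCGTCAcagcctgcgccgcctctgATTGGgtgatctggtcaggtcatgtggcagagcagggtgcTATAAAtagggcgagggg
Both windows held 1 CCAAT match and 1 TATAAA match. Srsf2 also held 1 GGCGCC match and no TGACG match, while Srsf3 held 2 TGACG matches and no GGCGCC match. Among 27025 mouse promoter windows of this length, CCAAT was present in 34.5%, TATAAA in 13%, GGCGCC in 9.54% and TGACG in 17.9%. CCAAT was present in 3 of the 9 members, TATAAA in 2, GGCGCC in 2 and TGACG in 5. The matches are descriptions of the letters and say nothing of which factors bind.

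Srsf2, a nuclear SR protein with a single RNA recognition motif, was near the bottom of the family in every group except one. In FPKM (fragments scaled by gene length and library total), its level was 2.44 and 3.18 in the 2 libraries of iPSC alone and 65.2 and 54.3 in those of iPSC alone with BMP4. The assembled iPSC parts read 2.38 and 1.54 without BMP4 and 1.81 and 5.24 with it. TSC alone read 2.50 and 6.02, and TSC alone with BMP4 read 5.36 and 7.16. The assembled TSC parts read 9.72 and 6.67 without BMP4 and 6.67 and 8.03 with it.

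The high level was thus seen in both libraries of iPSC alone with BMP4 and in none of the other 14, whose highest value was 9.72 FPKM. The lower of the 2 high libraries was 5.59 times that highest value. Between iPSC alone with and without BMP4 the group means were 59.8 ± 7.71 and 2.81 ± 0.52 FPKM (SD, n = 2 each), a ratio of 21.3. On the log2(FPKM + 1) scale, which understates the change of a low gene, the difference was 4.0 ± 0.41 (SE). The same BMP4 treatment was followed by no such level in the assembled iPSC parts (mean 3.52 ± 2.42 FPKM, SD, n = 2).

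Markers of the other lineage were read in the same libraries, with no test. The 12 trophoblast markers summed to 328 and 819 FPKM in iPSC alone with BMP4, against 189 and 126 in iPSC alone. Of the 12, 5 were under 1 FPKM in both libraries of iPSC alone: Cdx2, Elf5, Gata3, Plac1 and Esx1. With BMP4 only Elf5 and Dlx3 were under 1 FPKM in both libraries. Cdx2, Gata3, Plac1 and Esx1 thus reached 1 FPKM in at least 1 library with BMP4. The assembled iPSC parts with BMP4 summed to 546 and 602 FPKM, with Srsf2 at 1.81 and 5.24. The part of these markers in the Srsf2 level was not tested.

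Below that group, the order of mean Srsf2 levels was the assembled TSC part (8.20 FPKM), the assembled TSC part with BMP4 (7.35), TSC alone with BMP4 (6.26), TSC alone (4.26), the assembled iPSC part with BMP4 (3.52), iPSC alone (2.81) and the assembled iPSC part (1.96). Neighbours in this order had overlapping libraries, apart from the last pair, where the lowest iPSC library (2.44 FPKM) lay just above the highest assembled iPSC library (2.38 FPKM). The libraries of the assembled TSC and iPSC parts without BMP4 did not overlap, with a log2 difference of 1.63 ± 0.41 (SE). Such separation was not counted over all genes, and nothing is read from it. Genes that share exons with Srsf2 moved the same way in this comparison, as given below.

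**Figure D1:**
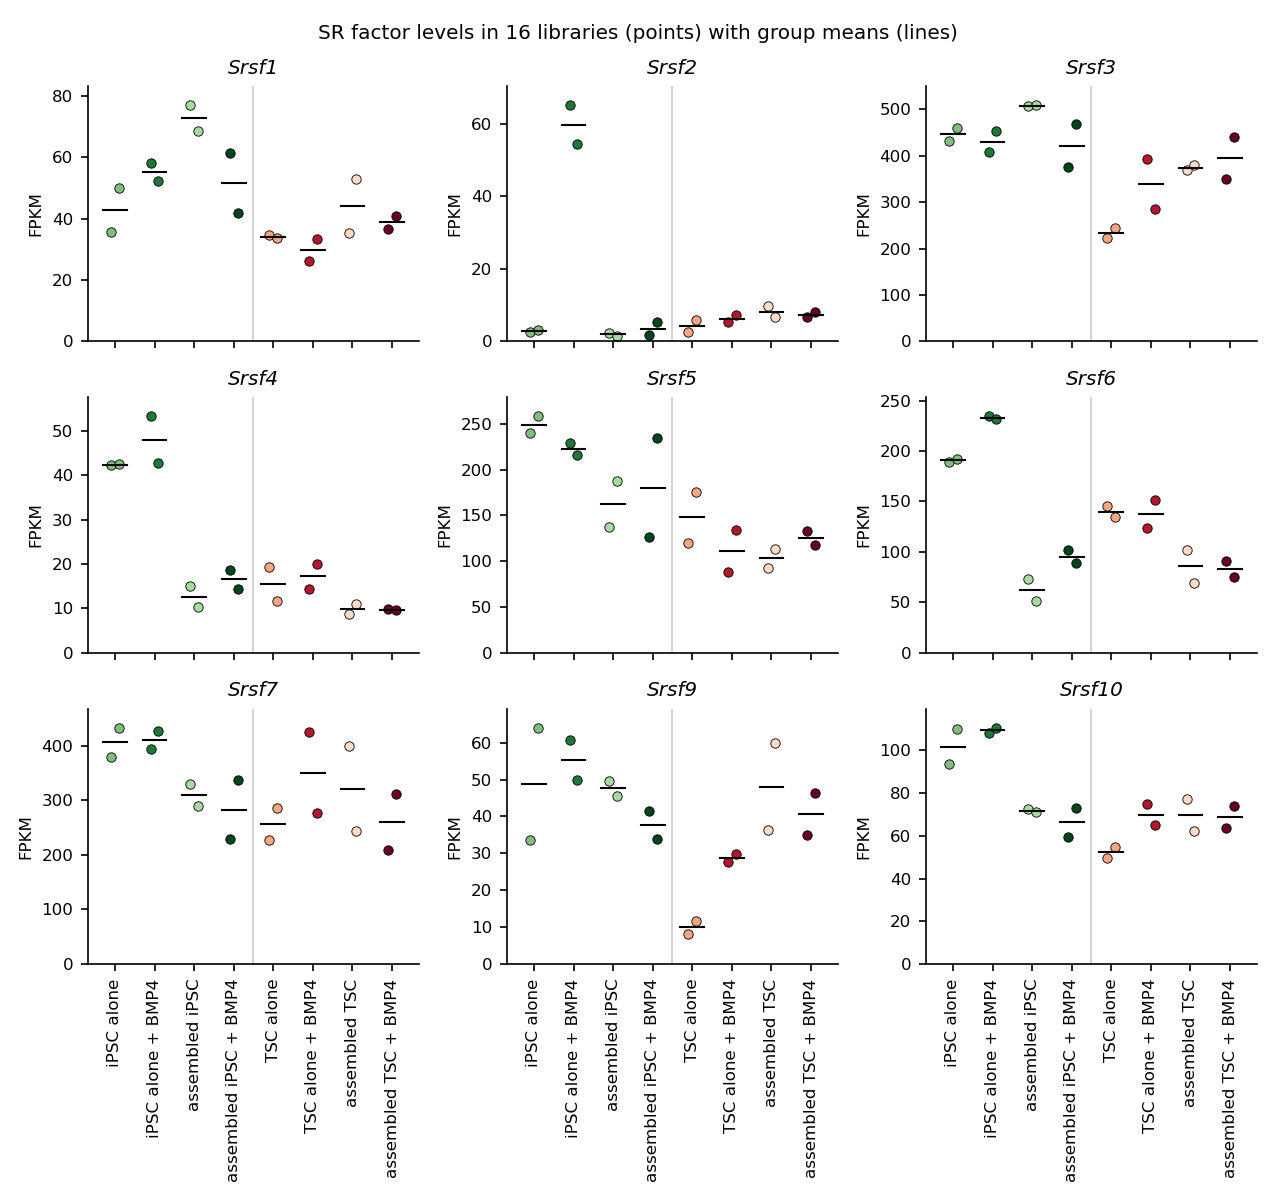
FPKM (linear axis from 0, scaled for each gene) of the 9 SR factor genes in 16 libraries. Points are libraries, horizontal lines are means of 2 libraries, and the vertical line separates iPSC groups from TSC groups. Srsf2 lies at 54.3 to 65.2 in iPSC alone with BMP4 and at or under 9.72 elsewhere, and Srsf9 has its lowest libraries in TSC alone.

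The other 8 members did not share the Srsf2 pattern. Their ratio of means between iPSC alone with and without BMP4 ran from 0.892 for Srsf5 to 1.29 for Srsf1. Srsf6, an SR protein with a pair of RNA recognition motifs, read 235 and 232 FPKM with BMP4 and 189 and 192 without. Srsf4 read 53.3 and 42.8 FPKM with BMP4 and 42.2 and 42.5 without. Without overlap, the libraries of Srsf1, Srsf4 and Srsf6 lay higher with BMP4 and those of Srsf5 lower. The share of all genes that separated in this way was not counted, so nothing is read from it. Of the 13406 genes tested, 0.0597% were called in this comparison, where a gene is called at an adjusted p under 0.05 (limma, Benjamini-Hochberg over all genes tested), and nothing is read from that share since the contrast chose the set. Over the 16 libraries, the Pearson correlation of the other members with Srsf2 on the log2 scale was at most 0.529 (Srsf10).

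Srsf2 was also set against all other genes by the same measure, as a description only. It was chosen for this very pattern, so a high place among them was fixed in advance. Of 6882 tested genes with at least 5 FPKM in both libraries of iPSC alone with BMP4, 715 had both libraries above all 14 others, 7 had both over 2 times the highest other, and 2 had both over 5 times the highest other. Those last 2 were Srsf2 and Gm14870, which is named here after its values were seen and read 35.6 and 67.7 FPKM in iPSC alone with BMP4 and was listed at 0 in the other 14 libraries. The genes most like Srsf2 by Pearson correlation over the 16 libraries, among 8332 compared, were Nvl (0.806), Pdcd2 (0.805), Carnmt1 (0.796), Pccb (0.795) and Lamp1 (0.771). Their contrast was far smaller: Nvl, a nucleolar ATPase, read 27.8 and 24.8 FPKM in iPSC alone with BMP4 against 10.7 to 21.7 in the other 14 libraries. These correlations rest largely on the 2 libraries in which Srsf2 was high, and the libraries share unknown depths.

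Smart-seq2 does not mark the strand, so reads of Srsf2 and of genes on the opposite strand cannot be told apart where exons overlap. In GENCODE M21, 460 of the 2958 exonic bases of Srsf2 (15.6%) are shared with Mettl23, a methyltransferase gene, and 288 (9.74%) with Mfsd11, a membrane transporter-like gene. Mettl23 read 23.8 and 24.4 FPKM in iPSC alone and 29.6 and 33.6 with BMP4. Mfsd11 read 8.01 and 8.27 FPKM in iPSC alone and 6.70 and 14.9 with BMP4. The ratios of means were 1.31 and 1.32, against 21.3 for Srsf2.

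Of the other neighbours, Jmjd6, a hydroxylase known to act on splicing factors, read 44.8 and 44.3 FPKM in iPSC alone and 41.3 and 39.9 with BMP4. Mxra7 was low throughout, with at most 2.37 FPKM in any library. The highest Mettl23 level, 80.9 FPKM, was in an assembled TSC part, where Srsf2 read 9.72 FPKM. How reads in the overlapping exons were assigned is not stated, so the low Srsf2 levels, and with them the ratio of 21.3, carry an uncertainty of assignment whose part was not tested.

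**Figure D2:**
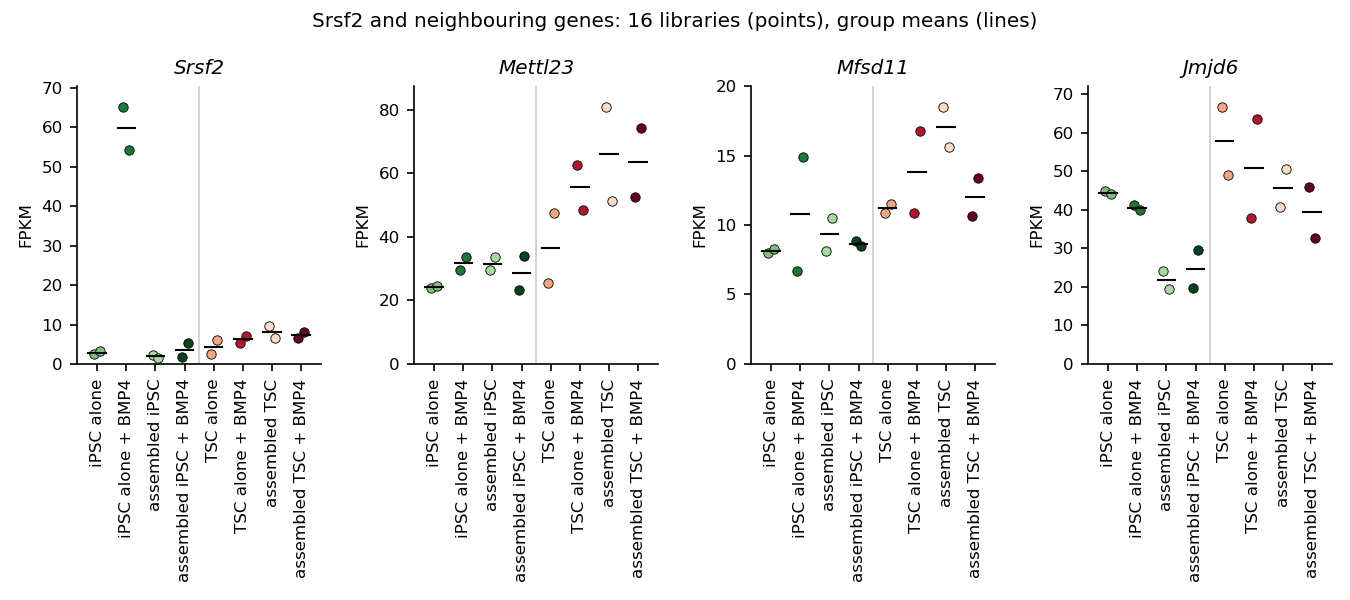
FPKM (linear axis from 0, scaled for each gene) of Srsf2 and of the neighbouring genes Mettl23, Mfsd11 and Jmjd6 in 16 libraries. Points are libraries and lines are means of 2. Only the Srsf2 panel has libraries of iPSC alone with BMP4 (54.3 and 65.2) set apart from all others.

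Levels of the other members were far from uniform. The median over the 16 libraries was 401 FPKM for Srsf3, 320 for Srsf7, 136 for Srsf5, 113 for Srsf6, 72.8 for Srsf10, 41.4 for Srsf1, 38.8 for Srsf9 and 14.7 for Srsf4. Srsf3 and Srsf7, which both act as adaptors for mRNA export, varied least along with Srsf10, a factor that represses splicing when dephosphorylated: the highest library was 2.28, 2.08 and 2.23 times the lowest. Srsf9 varied 7.76-fold and Srsf4 6.15-fold, against 42.3-fold for Srsf2. All 9 members passed the filter on low values, at least 1 FPKM in at least 2 libraries.

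Some of these levels carry an uncertainty of assignment. Srsf3 has near-identical copies in the annotation, among them the processed pseudogene Gm9761 (99.6% identity over 492 bases), which was itself listed at 48.2 to 132 FPKM, and Gm12355 (98.3% over 1298 bases) at 5.95 to 18.7 FPKM. Srsf5 has the pseudogene Gm12966 (98.6%) at no more than 7.65 FPKM, and Srsf10 has Gm5446 (98.4%) at no more than 3.77 FPKM. These copies were looked up by sequence match after the values were seen. For Srsf4, 43% of exonic bases lie opposite Gm12992, which was listed at no more than 0.306 FPKM in any library.

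The labelled lineages were checked against marker genes before members were compared between them. Pou5f1 read 49.5 to 326 FPKM in the 8 iPSC libraries and 0.0335 to 13.2 in the 8 TSC libraries. The 8 iPSC markers together did not separate the lineages: they summed to 398 to 1308 FPKM in the iPSC libraries and 192 to 801 in the TSC libraries, with 801 and 689 in the assembled TSC part against 730 and 772 in the assembled iPSC part. Elf5, a trophoblast transcription factor, read 5.51 and 11.6 FPKM in TSC alone and 116 to 224 in the other 6 TSC libraries. Eomes was under 1 FPKM in both libraries of TSC alone, which limits these as a model of TSC. One assembled iPSC part with BMP4 (replicate 2) read 50.4 FPKM of Elf5 against 0.193 in its replicate, and 1 assembled TSC part (replicate 2) read 13.2 FPKM of Pou5f1 against 2.33 in its replicate. Results that use these 2 libraries are given without them where a call changes. They are named here by Elf5 and Pou5f1 alone, and by marker sums other libraries were higher. The trophoblast sum was 819 FPKM in iPSC alone with BMP4 (replicate 2), against 602 in the first of the 2. The iPSC sum was 801 FPKM in assembled TSC replicate 1, against 689 in the second. The other libraries are thus not shown to be free of such genes. Summed levels of 6 endoderm markers reached at most 10.6 FPKM and those of 6 fibroblast markers 3.40 FPKM. In such bulk samples, fewer cells of a type and less RNA per cell cannot be told apart.

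Between TSC alone and iPSC alone, 4 of the 8 members tested were lower in TSC and none was higher. All 8 had both TSC libraries below both iPSC libraries. The share of all genes that separated in this way was not counted, so nothing is read from it. The libraries of Srsf2 overlapped, with means of 4.26 FPKM in TSC and 2.81 in iPSC. The background was 36.4% of all genes called, 20.2% of all genes being called lower, so 4 of 8 calls is a share of the same order as that of all genes called. The members' median log2 change was -0.85, against -0.11 over all genes tested.

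Srsf9, which is closest in build to Srsf1 and has a short arginine-serine domain, read 33.5 and 64.1 FPKM in iPSC alone and 8.26 and 11.7 in TSC alone. It fell by 2.13 ± 0.32 on the log2 scale (SE, adjusted p = 0.000318, limma). Srsf4, an SR protein with a long arginine-serine domain, read 42.2 and 42.5 FPKM in iPSC and 19.4 and 11.7 in TSC, and fell by 1.43 ± 0.29 (adjusted p = 0.00207, limma). Neither gene's libraries overlapped between the groups, and all 4 calls in this comparison held on leaving out each of the 4 libraries in turn.

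Srsf10 and Srsf3 fell by similar amounts. Srsf10 read 93.5 and 110 FPKM in iPSC and 49.7 and 54.8 in TSC, a log2 change of -0.94 ± 0.20 (adjusted p = 0.00276, limma). Srsf3 read 432 and 461 FPKM in iPSC and 224 and 245 in TSC, a change of -0.93 ± 0.20 (adjusted p = 0.00370, limma). Its near-identical copy Gm9761 was also lower in TSC, with an adjusted p of 0.0381 (limma), and so moved the same way as Srsf3.

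The other members had smaller differences that did not pass. The log2 change was -0.78 for Srsf5 (adjusted p = 0.0650), -0.67 for Srsf7 (0.103), -0.45 for Srsf6 (0.151) and -0.30 for Srsf1 (0.403), each by limma. Srsf5 passed after upper quartile rescaling (adjusted p = 0.0399, limma), with the replicate block (0.0350) and without the 2 libraries holding genes of the other lineage (0.0409), and Srsf7 passed after quantile normalization (0.0271). The Srsf5 pseudogene Gm12966 fell by 1.22 ± 0.33 (adjusted p = 0.0122, limma).

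In the assembled structures the TSC and iPSC parts gave no member called, against 16.9% of all genes. One member, Srsf1, the founding SR protein and a regulator of many alternative exons, had an unadjusted p under 0.05. Of all genes, 30.9% did. Srsf1 read 77.0 and 68.6 FPKM in the iPSC part and 35.2 and 52.7 in the TSC part, a log2 change of -0.74 ± 0.26 (adjusted p = 0.0719, limma). Srsf9, the largest difference among cells cultured alone, read 49.7 and 45.6 FPKM in the iPSC part and 36.2 and 59.8 in the TSC part, with a log2 change of -0.03 ± 0.32 (adjusted p = 0.968, limma). Its libraries overlapped in the assembled parts and did not overlap in the cells cultured alone.

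The count of 0 in the assembled parts depended on scaling. After quantile normalization, Srsf1 (-0.84, adjusted p = 0.0460, limma) and Srsf3 (-0.47, adjusted p = 0.0371, limma) were called lower in the TSC part. After upper quartile rescaling, Srsf1, Srsf3 and Srsf5 were called lower, with log2 changes of -0.99, -0.69 and -0.89. Without the 2 libraries holding genes of the other lineage, Srsf1 alone was called (-1.03, adjusted p = 0.0350, limma).

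**Figure D3:**
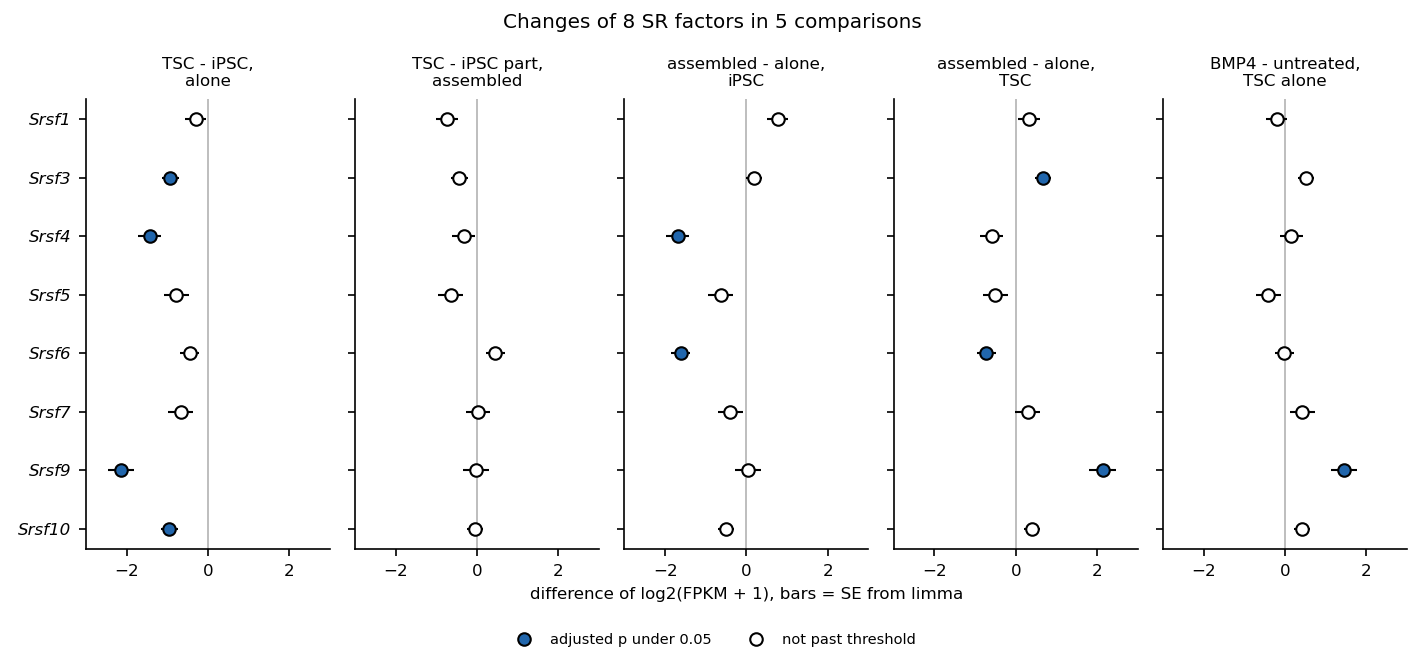
Differences of log2(FPKM + 1) for the 8 SR factors tested, with limma's standard errors, in 5 comparisons (x axis, from -3 to 3). Filled points passed an adjusted p of 0.05 over all genes. Srsf9 lies at -2.13 between TSC and iPSC alone, at -0.03 between the assembled parts and at 2.14 between assembled and lone TSC.

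Assembly was compared within each lineage. In the assembled TSC part against TSC alone, 2 of 8 members rose and 1 fell, against 19.2% of all genes called. Srsf9 rose from 8.26 and 11.7 FPKM to 36.2 and 59.8, a log2 change of 2.14 ± 0.32 (adjusted p = 0.00117, limma), or 4.39-fold. All 4 left-out fits kept this call, with changes of 1.78 to 2.49, although it did not pass when only the 4 libraries compared were fitted (adjusted p = 0.0827, limma).

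Srsf3 rose from 224 and 245 FPKM to 369 and 381, a log2 change of 0.67 ± 0.20 (adjusted p = 0.0364, limma). Srsf6 fell from 145 and 134 FPKM to 102 and 69.3, by 0.72 ± 0.23 on the log2 scale (adjusted p = 0.0462, limma). Both calls sit near the threshold: that of Srsf3 was lost on leaving out any of the 4 libraries (adjusted p up to 0.132, limma), and that of Srsf6 on leaving out TSC replicate 1, TSC replicate 2 or assembled TSC replicate 2 (adjusted p up to 0.298, limma). Without that assembled TSC replicate 2, which holds genes of the other lineage, the Srsf6 change was -0.45. Srsf6 also did not pass after upper quartile rescaling, and Srsf3 did not pass after quantile normalization.

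In the assembled iPSC part against iPSC alone, 2 of 8 members fell and none rose, against 11.8% of all genes called. Srsf6 fell from 189 and 192 FPKM to 73.1 and 51.7, by 1.62 ± 0.23 on the log2 scale (adjusted p = 0.00434, limma). Srsf4 fell from 42.2 and 42.5 FPKM to 15.0 and 10.3, by 1.69 ± 0.29 (adjusted p = 0.00616, limma). Both sets of libraries were far apart, with the assembled parts at 3.07-fold and 3.22-fold lower levels on the log2(FPKM + 1) scale. The median change was -0.44 for the members and -0.19 for all genes, and relative to that shift Srsf4 and Srsf6 remained lower after both other scalings (quantile: -1.38 and -1.57; upper quartile: -1.39 and -1.30).

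These 2 calls rested in part on single libraries. Without assembled iPSC replicate 2, neither gene passed, with an adjusted p of 0.0835 for Srsf4 and 0.0586 for Srsf6 (limma). Srsf4 also did not pass without either iPSC library. Srsf1 had a change of the opposite sign: it read 35.5 and 50.1 FPKM in iPSC alone and 77.0 and 68.6 in the assembled part, with a log2 change of 0.77 ± 0.26 (adjusted p = 0.0743, limma), which passed after quantile normalization (adjusted p = 0.0436) and upper quartile rescaling (adjusted p = 0.0224).

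The remaining members gave no call for assembly in either lineage. In the iPSC part the log2 change was -0.63 for Srsf5, -0.49 for Srsf10, -0.39 for Srsf7, 0.19 for Srsf3 and 0.04 for Srsf9. In the TSC part it was -0.59 for Srsf4, -0.50 for Srsf5, 0.40 for Srsf10, 0.33 for Srsf1 and 0.29 for Srsf7. Srsf4 and Srsf6 had negative changes in both lineages, that of Srsf4 in the TSC part not passing (adjusted p = 0.171, limma).

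Whether assembly acted differently in the 2 lineages was tested as an interaction, added after the values were seen. Of the 8 members, 1 passed, Srsf9, against 4.96% of all genes. Its change on assembly was 2.10 ± 0.45 larger in TSC than in iPSC on the log2 scale (adjusted p = 0.0237, limma). The value ran from 1.64 to 2.56 on leaving out single libraries, and the call was lost without iPSC replicate 2, TSC replicate 1, either assembled iPSC library or assembled TSC replicate 2 (adjusted p up to 0.102, limma). Srsf10 was next (0.90 ± 0.28, adjusted p = 0.0853), then Srsf4 (1.10 ± 0.41, adjusted p = 0.128) and Srsf6 (0.90 ± 0.33, adjusted p = 0.128), by limma.

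BMP4 in TSC alone raised 1 of 8 members, Srsf9, and lowered none, against 12.1% of all genes called. Srsf9 read 8.26 and 11.7 FPKM without BMP4 and 27.5 and 30.0 with it, a log2 change of 1.46 ± 0.32 (adjusted p = 0.0128, limma). The libraries did not overlap. The call was lost without TSC replicate 1 or TSC replicate 1 with BMP4 (adjusted p up to 0.0667, limma), and when only the 4 libraries compared were fitted (adjusted p = 0.189, limma). Srsf3 (0.51) and Srsf10 (0.41) had higher libraries with BMP4 throughout and did not pass (adjusted p = 0.122 and 0.199, limma). Srsf1 (-0.20) had lower libraries with BMP4 throughout and did not pass either (adjusted p = 0.670, limma). How many of all genes separated in this way was not counted, so nothing is read from it.

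The low Srsf9 level in TSC alone enters 4 of these comparisons: TSC against iPSC, assembly in TSC, BMP4 in TSC and the interaction. They share the same 2 libraries, which are the 2 lowest of all 16 for Srsf9. The comparison of all TSC with all iPSC libraries, given below, uses them too. Those 2 libraries also stood apart in trophoblast markers. The 12 trophoblast markers summed to 7181 and 4028 FPKM in TSC alone, 1645 and 1744 in TSC alone with BMP4, 1820 and 1699 in the assembled TSC part, and 526 and 843 in the assembled TSC part with BMP4. Among TSC libraries Elf5 was lowest in the same 2, with 5.51 and 11.6 FPKM in TSC alone against 153 and 130 with BMP4 and 116 and 159 in the assembled part. Of the 12, Eomes alone was under 1 FPKM in both libraries of TSC alone. The 8 iPSC markers, in turn, summed to 192 and 278 FPKM in TSC alone, 492 and 258 with BMP4 and 801 and 689 in the assembled TSC part, and Srsf9 read 33.5 FPKM or more in every iPSC library. The part of these marker differences in the Srsf9 result was not tested.

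No member passed the test for BMP4 in the assembled parts. In the assembled iPSC part 0 of 8 were called by limma, against 0.00746% of all genes. There 1 had an unadjusted p under 0.05, against 7.82% of all genes. It was Srsf6, at 73.1 and 51.7 FPKM without BMP4 and 102 and 88.7 with it (log2 change 0.62 ± 0.23, adjusted p = 0.503, limma). In the assembled TSC part 0 of 8 were called by limma, against 0.5% of all genes, and 0 had an unadjusted p under 0.05, against 8.73% of all genes. There the member changes ran from -0.29 for Srsf7 to 0.29 for Srsf5. Calls were rare among all genes in both comparisons, so a lack of calls among 8 members is no evidence of equal levels.

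Over all conditions together, the 8 TSC libraries were lower than the 8 iPSC libraries for 6 of 8 members, with none higher, against 48.8% of all genes called and 24% called lower. The calls were Srsf4 (-0.97 ± 0.14), Srsf9 (-0.74 ± 0.16), Srsf5 (-0.72 ± 0.15), Srsf1 (-0.58 ± 0.13), Srsf3 (-0.45 ± 0.10) and Srsf10 (-0.40 ± 0.10), with adjusted p from 0.000122 to 0.00537 (limma). Srsf6 (-0.24) and Srsf7 (-0.26) did not pass. The libraries of the 2 lineages overlapped for every member: Srsf4, for example, ran from 10.3 to 53.3 FPKM in iPSC libraries and from 8.67 to 20.0 in TSC libraries. The median over the 8 members was -0.51, against -0.01 over all genes. Each of these 6 calls held on leaving out any of the 16 libraries in turn. The comparison averages pairs of groups whose changes differed. In the assembled parts without BMP4 the log2 change was -0.74 for Srsf1, -0.64 for Srsf5, -0.44 for Srsf3 and -0.33 for Srsf4. It was -0.05 for Srsf10 and -0.03 for Srsf9. With BMP4 the assembled TSC means lay above the iPSC means for Srsf9 (40.6 against 37.6 FPKM) and Srsf10 (68.8 against 66.4). They lay below for Srsf1, Srsf3, Srsf4 and Srsf5. So the calls of Srsf9 and Srsf10 do not describe the assembled parts.

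Most of the family's RNA came from 3 genes. Srsf3, Srsf7 and Srsf5 together held 64.0% to 80.2% of the summed FPKM of the 9 members in every library. Srsf10 kept the narrowest share, 5.65% to 6.84%. Srsf2 held 3.32% and 4.05% in iPSC alone with BMP4 and 0.125% to 0.861% in the other 14 libraries. The Srsf9 share was lowest in TSC alone (down to 0.995%) and reached 5.99% elsewhere, and the Srsf6 share ran from 4.18% to 17.5%.

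**Figure D4:**
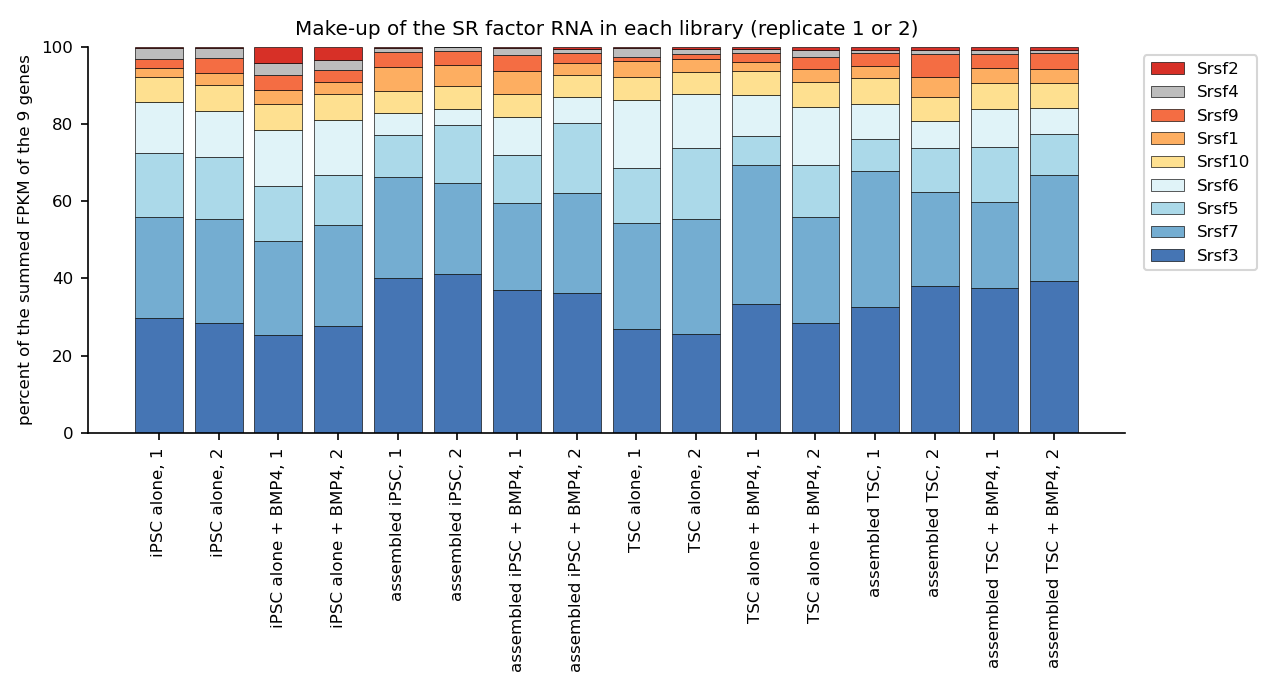
Percent of the summed FPKM of the 9 SR factor genes held by each gene in each of 16 libraries (stacked bars, 0 to 100%). Srsf3, Srsf7 and Srsf5 fill 64.0% to 80.2% of every bar, and the red Srsf2 segment at the top is visible mainly in iPSC alone with BMP4.

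Other genes of the splicing pathway were counted from 6 lists by function. Between TSC and iPSC alone their counts are to be read against 36.4% of all genes called (16.2% higher and 20.2% lower) and a median change of -0.11. For assembly in iPSC the background was 11.8% called (2.08% higher and 9.74% lower) with a median of -0.19, and for assembly in TSC 19.2% called (9.01% higher and 10.2% lower) with a median of 0.03.

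Among 22 other SR and SR-like factors, 5 fell and none rose between TSC and iPSC alone (median -0.19). The share that fell was near the 20.2% of all genes called lower, while 16.2% of all genes were called higher. Those that fell included Srsf12 (-1.57), which was low, with at most 4.69 FPKM in any library. Also lower were Rnps1 (-1.08), a component of the exon junction complex, and Scaf4 (-1.04). Between the assembled iPSC part and iPSC alone, 8 of the 22 fell and none rose (median -0.73), but 4 fell after quantile normalization and 3 after upper quartile rescaling. They included Snrnp70 (-2.39 ± 0.40, adjusted p = 0.00562, limma), a U1 snRNP protein, and U2af1 (-2.28 ± 0.33, adjusted p = 0.00434, limma), which recognises the 3′ splice site. In the assembled TSC part against TSC alone, 3 fell and 1 rose (median -0.32). Snrnp70 (-1.95) and U2af1 (-1.47) fell there too, although Snrnp70 did not pass without the 2 libraries holding genes of the other lineage (-1.34, adjusted p = 0.0628, limma).

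Among 13 tested kinases, phosphatases and importers of SR proteins, 1 rose and 3 fell between TSC and iPSC alone (median -0.12), near the background. With assembly in iPSC 1 rose and 2 fell (median -0.02), Srpk2, an SR protein kinase, falling by 1.81 ± 0.37 on the log2 scale (adjusted p = 0.0114, limma). With assembly in TSC 0 passed by limma (median 0.33), and 2 rose after either quantile normalization or upper quartile rescaling. Clk3, another kinase of SR proteins, rose with BMP4 in TSC alone (0.83 ± 0.24, adjusted p = 0.0386, limma), 1 of 2 list genes to do so, where 12.1% of all genes were called (6.39% higher).

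The hnRNP proteins, which often oppose SR proteins at exons, had 8 of 24 lower and 1 higher in TSC alone against iPSC alone (median -0.41), again a share close to that of all genes called. Ptbp2 fell by 2.40 on the log2 scale and Ptbp3 rose by 1.16. With assembly in iPSC, 8 fell and 2 rose (median -0.48), led by Hnrnpa1 (-2.21 ± 0.30, adjusted p = 0.00434, limma). After quantile normalization 8 fell and 5 rose there. With assembly in TSC, 4 fell and 1 rose (median -0.38), Hnrnpa1 again among those that fell (-1.41), and after each of the other scalings 4 rose.

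Among 30 core spliceosome genes, 7 fell and 2 rose between TSC and iPSC alone (median -0.38), near the background. With assembly in TSC 8 rose and 2 fell (median 0.46), led among those that rose by the Sm proteins Snrpf (1.40) and Snrpe (1.26). With assembly in iPSC 3 fell and none rose (median 0.04), but after upper quartile rescaling 2 fell and 6 rose, so no direction is given for that list there. Of 15 nonsense-mediated decay genes, 3 rose and 2 fell between TSC and iPSC alone (median 0.04). With assembly 1 rose and 2 fell in iPSC (median -0.18) and 1 fell in TSC (median -0.12). Upf3a, which acts beside Upf3b in decay, fell in both the iPSC part (-2.28 ± 0.30, adjusted p = 0.00434, limma) and the TSC part (-1.39 ± 0.30, adjusted p = 0.00826, limma), the latter not passing without the 2 libraries holding genes of the other lineage (adjusted p = 0.0611, limma).

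Of 13 tested lineage-regulated splicing factors, 5 rose and 2 fell between TSC and iPSC alone (median 0.36). Mbnl3, a muscleblind protein, rose by 6.32 ± 0.75 on the log2 scale (adjusted p = 6.56e-05, limma), and Esrp2, an epithelial splicing regulator, by 3.40 ± 0.40 (adjusted p = 7.05e-05, limma). With assembly 1 rose and 1 fell in iPSC (median -0.16) and 3 rose and 2 fell in TSC (median -0.30). Mbnl3 and Esrp2 fell with assembly in TSC (-3.69 and -2.04) and with BMP4 in TSC alone (-2.96 and -1.95), comparisons that share the 2 libraries of TSC alone. The Mbnl3 change with BMP4 did not pass with a pseudocount of 0.1 (adjusted p = 0.122, limma) or without the filter (adjusted p = 0.0699, limma). No gene of the 6 lists was called by limma for BMP4 in either assembled part, where 0.00746% and 0.5% of all genes were called in the iPSC and the TSC part.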

How the data were processed

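RNA-seq of 16 libraries was deposited as a single table of FPKM computed by the authors, with 31663 entries. CASAVA, TopHat2 and the builds mm9 and hg19 occur per the submitters' processing notes, without versions or roles. For the FPKM program, the annotation and the treatment of shared reads, nothing is stated in the sources used here. Read counts are unknown, so the depth behind a value, and any counting interval, is unknown. Summed FPKM ran from 666077 to 947859 per library.

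Values were taken as log2(FPKM + 1), entries reaching 1 FPKM in 2 or more libraries were kept (13406), and 8 group means were fitted over 16 libraries with limma 3.58.1 in R 4.3.3 (eBayes with trend, 8 residual degrees of freedom). Tests were two-sided, adjusted by Benjamini-Hochberg over all genes in each of 8 comparisons, threshold 0.05. The procedure was tested on simulated data. Members and gene lists were chosen with earlier results of these data known. The interaction was added after seeing the data. Fits were repeated with upper quartile or quantile scaling, with the replicate block, with a pseudocount of 0.1, without the filter, with only the groups compared, and with single libraries, or both libraries holding genes of the other lineage, left out. For the gene lists, 6 of these were chosen after seeing the data. Named genes were all 9 members, the 4 neighbours of Srsf2, the 5 genes most correlated with it, and per list and comparison up to 3 called genes with the largest change. Copies (at least 90% identity over 100 bases) were found with BLAST+ 2.17.0. No label says that replicate numbers pair the libraries. Over 28 pairs of groups, replicate deviations correlated between -0.18 and 0.12, which cannot show whether cultures were shared.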

Additional observations from a re-analysis of the deposited data

Results flagged for a closer look

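By an interaction added after the values were seen, the effect of assembly on Srsf9 was called different between lineages. The log2 change from cells alone to the assembled part was 2.10 larger in TSC than in iPSC (limma, adjusted p = 0.0237). On leaving out single libraries this value ran from 1.64 to 2.56. All 4 libraries of the 2 iPSC groups lay between 33.5 and 64.1 FPKM, while TSC moved from 8.26 and 11.7 FPKM to 36.2 and 59.8. The call did not hold without the 2 libraries that had genes of the other lineage (1.74, adjusted p = 0.0716, limma) or with only the 4 groups compared in the fit (adjusted p = 0.0653, limma).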

How the results depend on the processing

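No called change of a member, nor any of the 89 changes of list genes picked by the naming rule, changed sign under the alternatives run for it. Of the 89, 72 to 84 were still called under each of 6 alternatives, while list counts and the balance of all genes moved with scaling. List genes, with alternatives chosen after seeing the data, were not refitted with single libraries left out, and copies and neighbours were not refitted. For the assembled TSC against iPSC parts, 0 members called became 2 after quantile normalization, 3 after upper quartile rescaling and 1 without the 2 libraries holding genes of the other lineage. For assembly in TSC, 3 became 1 without those libraries and 0 when only the groups compared were fitted. For BMP4 in TSC alone, 1 became 0 in that last fit. Leaving out each library gave 4 to 5 calls for TSC against iPSC alone, 0 to 2 for assembly in iPSC, 1 to 2 for assembly in TSC, 0 to 2 for BMP4 in TSC alone and 6 to 7 for all TSC against all iPSC, and 0 in the other comparisons. The cause was not tested, beyond fewer libraries in those fits. The Srsf2 difference was 4.37 with a pseudocount of 0.1 in place of 4.0. With the replicate block, 5 members in place of 4 were called for TSC against iPSC alone, and the other 7 counts were equal to those without it.

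Over all genes, calls for assembly in iPSC numbered 1585 and fell to between 6 and 739 on leaving out a library. Calls for assembly in TSC (2575) and BMP4 in TSC alone (1625) fell to 3 each when only the groups compared were fitted. The split of higher and lower genes moved with scaling for assembly in iPSC (279 and 1306 as deposited, 577 and 780 by quantile, 774 and 713 by upper quartile) and for the assembled parts (1482 and 789, then 1273 and 1180, then 1099 and 1290). With 2 libraries per group and no known depth, small differences of low genes such as Srsf2 outside its high group cannot be resolved.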
